A study of Mus musculus with 20 samples.

Results

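Classical cadherins and the catenins that bind them hold hepatocytes together, and their transcripts were followed here in livers of *IMP2-2* tg and wt mice. The genes are *Cdh1* (E-cadherin), *Cdh2* (N-cadherin), *Ctnnb1* (β-catenin), *Jup* (plakoglobin), *Ctnna1* (α-catenin) and *Ctnnd1* (p120-catenin), chosen by name. All probe sets annotated to 1 of these 6 genes alone were taken, which gives 14 of the 45101 probe sets and 6 of the 18194 named genes on the array. RNA from the livers of 10 *IMP2-2* tg mice and 10 wt mice was read on Affymetrix Mouse Genome 430 arrays. The tg mice carry the p62/IMP2-2 transgene, which by the series title is expressed specifically in the liver, and the wt mice lack it. Mice of both genotypes were 5 weeks old, untreated and of the C57Bl6J/DBA2 background. The promoter of the transgene and the sex of the mice are not given in the sources used here, and *Igf2bp2* has no probe set of its own, so the transgene itself was not analysed here.

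E-cadherin and N-cadherin are transmembrane proteins whose outer parts bind the same cadherin on the neighbouring cell. Most epithelia carry mainly E-cadherin, whereas hepatocytes carry both, and E-cadherin is the stronger around the portal tracts. On the inner side β-catenin or its relative plakoglobin binds the cadherin tail, α-catenin links this complex to actin, and p120-catenin keeps the cadherin at the membrane. Free β-catenin also enters the nucleus and there turns on Wnt target genes, which in liver are mainly those of hepatocytes around the central vein.

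Values are log2 RMA signals, so 1 unit is a doubling of signal, and a probe set is read only between arrays because probe sets differ in binding strength. Differences were tested in limma, with no term but genotype and with Benjamini-Hochberg adjustment across the whole array at a threshold of 0.05. The wt arrays wt_1407_2 and wt_1420_6 were almost the same over all probe sets (SD of their log2 difference 0.168), as were wt_1407_5 and wt_1420_7 (0.172), where the other wt pairs gave 0.228 to 0.401. Whether each pair comes from 2 mice is not known. Each pair therefore counts once in wt means and SDs (n = 8), and values with the pairs averaged are given where the call changed. Arrays tg_1420_4, tg_1423_2-8_1 and tg_1423_2-8_4 lay apart from the other 7 tg arrays in several of the genes below. Array wt_1386_4 was closest to tg_1386_9 of the other genotype (SD 0.155), more alike than either near-identical wt pair. Whether the labels of both are right is not known, and the main tests keep both. Results are also given without the 3 tg arrays and without tg_1386_9 and wt_1386_4. The 6 hepatocyte markers *Alb*, *Ttr*, *Apoa1*, *Serpina1c*, *Hnf4a* and *Cyp2e1* averaged 13.6 to 13.7 on every tg and every wt array, which was the check of the label liver. Precision is limited by how many mice there were.

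Of the 6 genes only *Cdh1* had a probe set that limma called higher in livers of *IMP2-2* tg mice. This call was lost with the near-identical wt pairs averaged (limma adjusted p = 0.0734). Limma called 1 of the 14 probe sets higher and 0 lower, where 1.88% of all probe sets were called higher and 0.663% lower. An unadjusted p under 0.05 was found for 5 of the 14, all higher in tg and belonging to *Cdh1*, *Cdh2*, *Ctnnb1* and *Ctnna1*. Of all probe sets 20.4% reached this level, 9.61% higher and 10.8% lower. The log2 fold change was above 0 in 12 of the 14, with a median of 0.10, and 40.0% of all probe sets were above 0. Signals of 11 of the 14 reached the median of all probe sets, and among all probe sets that did so 48.3% were above 0 and 3.42% were called higher. The tg and wt arrays overlapped in each of the 14, and they were fully separate in only 0.0798% of all probe sets.

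**Figure D1:**
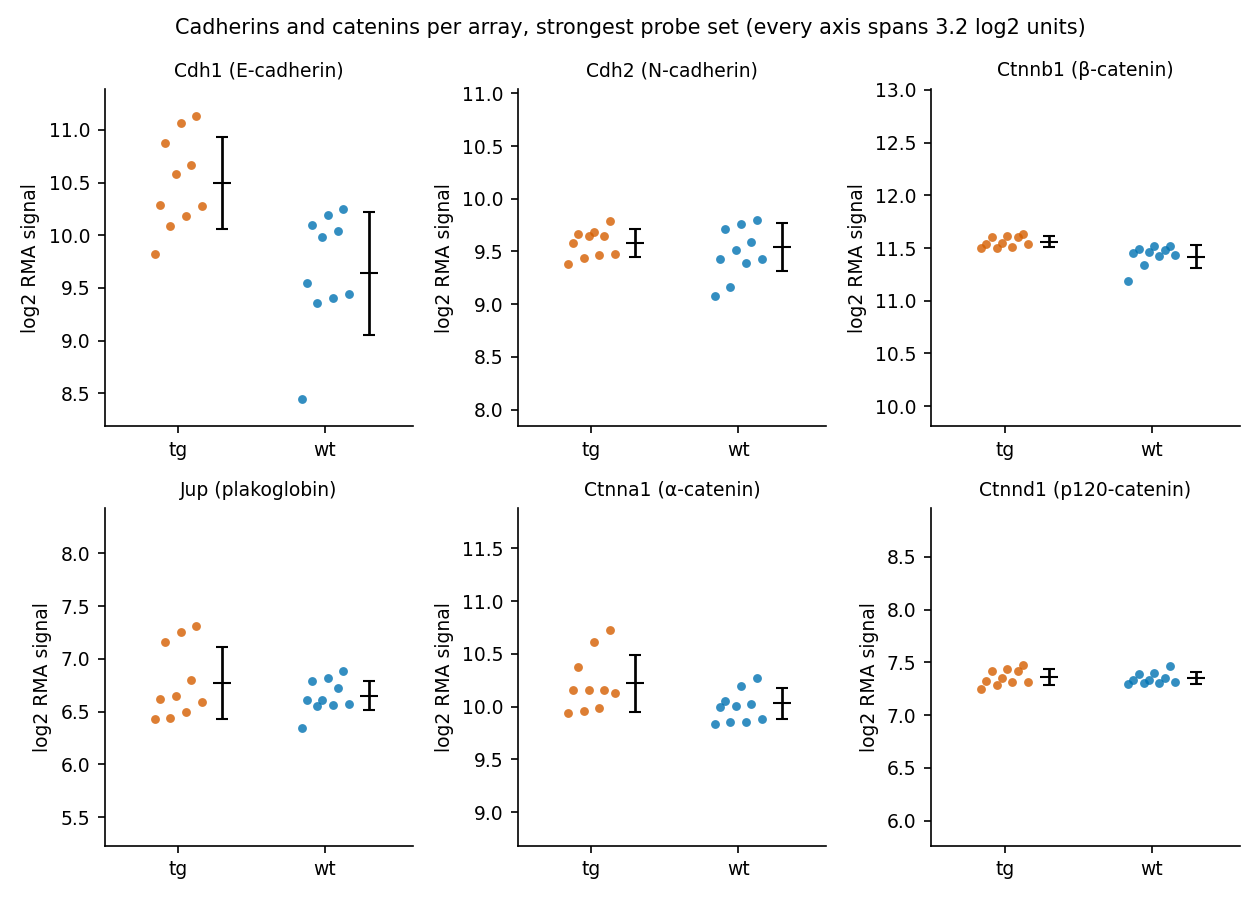
Log2 RMA signal of the strongest probe set of each gene on *IMP2-2* tg arrays (n = 10) and wt arrays (n = 10), 1 point per array, each axis spanning 3.2 log2 units. Bars are mean ± SD, where each near-identical pair of wt arrays counts as 1 (n = 8). The 10 tg arrays of *Cdh1* lie between 9.82 and 11.13 and the wt arrays between 8.44 and 10.25. *Ctnnb1* and *Ctnnd1* stay in narrow bands in both genotypes.

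E-cadherin is the adhesion molecule of the epithelial adherens junction, and its gene has 1 probe set here (1448261_at). *Cdh1* had a lowest signal of 9.82, a median of 10.43 and a highest signal of 11.13 in tg livers, against 8.44, 9.76 and 10.25 in wt livers. The genotypes overlapped, with 7 of 10 tg arrays above every wt array and all 10 above the wt median. The mean was 10.50 ± 0.44 in tg (SD, n = 10) and 9.64 ± 0.58 in wt livers (SD, n = 8). Over all 20 arrays this is a 1.77-fold rise (95% interval 1.31 to 2.37, limma adjusted p = 0.0381). In whole liver, more cells with a transcript and more transcript per cell cannot be told apart.

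The 3 highest *Cdh1* signals were those of tg_1420_4, tg_1423_2-8_1 and tg_1423_2-8_4 (10.88 to 11.13), and the other 7 tg arrays reached 9.82 to 10.66. The lowest of all was wt_1423_2-8_9 with 8.44, well under the next wt array at 9.36. Without the 3 tg arrays the log2 fold change was 0.60 (limma adjusted p = 0.270), and 4 of the 7 remaining tg arrays still lay above every wt array. It was 0.50 without the 4 arrays named tg_1423_2-8 and wt_1423_2-8 (adjusted p = 0.211) and 0.86 with the near-identical wt pairs averaged (adjusted p = 0.0734). Without tg_1386_9 and wt_1386_4 it was 0.91 (adjusted p = 0.0272). Within the 6 numbers that sample names share between genotypes *Cdh1* was higher in tg in 5 of 6, with a median difference of 0.47. The difference was 2.10 log2 units between the arrays named tg_1423_2-8 and wt_1423_2-8, and -0.16 between tg_14231_6 and wt_14231_2.

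*Cdh1* also varied more within a genotype than most genes do. Its SD within genotype was 0.499, where the median of the 1009 probe sets of similar signal was 0.170, and 92.6% of them varied less. Among the catenins, the strongest *Ctnnd1* probe set had an SD of 0.0653, and only 0.0821% of 3653 probe sets of similar signal varied less. The strongest *Ctnnb1* probe set (SD 0.0804) was also steadier than most, with 16.3% of 473 below it. The other *Ctnnb1* probe sets varied more than most of similar signal. Their SDs were 0.206 for 1450008_a_at (63.0% below it) and 0.391 for 1430533_a_at (89.6% below it).

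N-cadherin is the second classical cadherin of hepatocytes, and neither of its 2 probe sets passed the test. *Cdh2* probe set 1418815_at had a lowest, median and highest signal of 9.38, 9.61 and 9.79 in tg livers, against 9.08, 9.47 and 9.80 in wt livers. The wt range covered that of the tg arrays almost fully, and 0 tg arrays lay above every wt array. The log2 fold change was 0.09 (95% interval -0.08 to 0.27, limma adjusted p = 0.562). The weaker probe set 1449244_at gave 8.50, 8.59 and 8.92 in tg livers, against 8.10, 8.43 and 8.75 in wt livers. Here all 10 tg arrays were above the wt median and 1 was above every wt array, with a log2 fold change of 0.18 (95% interval 0.03 to 0.34, limma adjusted p = 0.172, unadjusted p = 0.0233). The intervals of the 2 probe sets reach up to a 1.20-fold and a 1.27-fold rise.

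**Figure D2:**
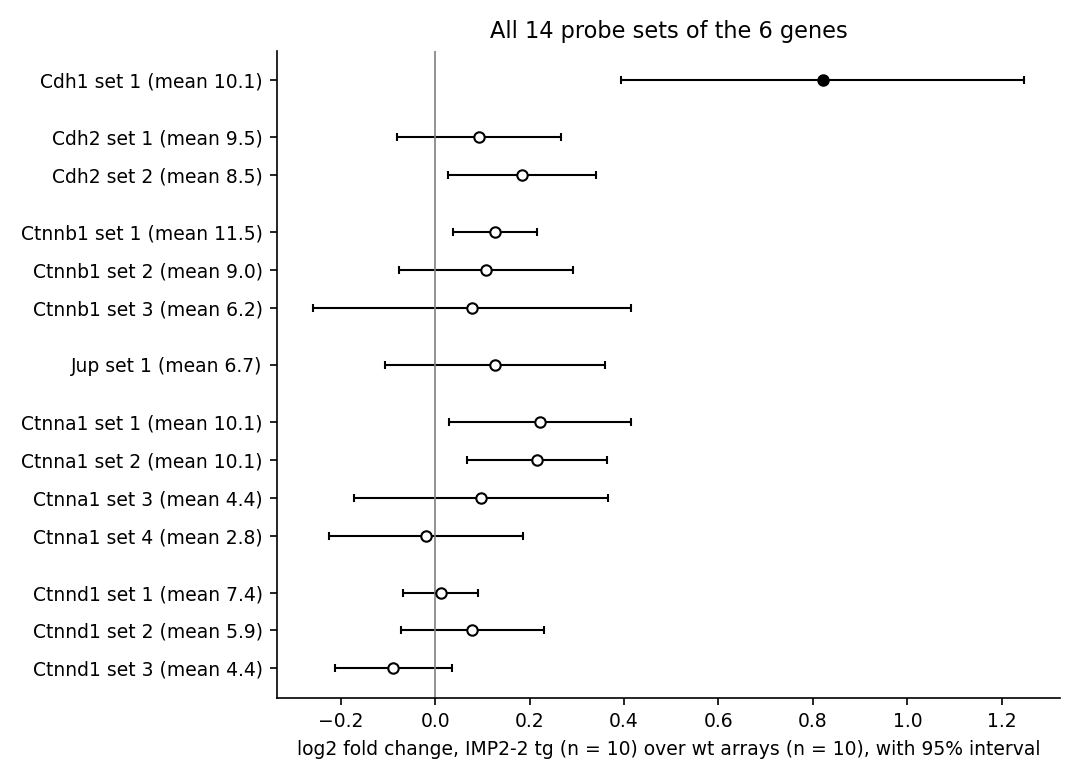
Log2 fold change of all 14 probe sets, *IMP2-2* tg (n = 10) over wt arrays (n = 10), with 95% intervals from limma. Sets are numbered by mean signal within a gene, the filled point passed adjusted p under 0.05, and the interval of *Cdh1* (0.39 to 1.25) lies right of the intervals of all catenin probe sets except *Ctnnb1* set 3 and *Ctnna1* set 1.

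The shift of E-cadherin against N-cadherin and the catenins was then read within each array, as the log2 difference of the 2 strongest probe sets. Only the change of this difference between genotypes can be read, because the probe sets have different scales. *Cdh1* gained on *Cdh2* by 0.73 log2 units in tg livers (two-sided permutation test, p = 0.00410, Benjamini-Hochberg value 0.00512 over 5 differences). The difference was above every wt array in 5 of 10 tg arrays and above the wt median in 9. It was 0.82 with the near-identical wt pairs averaged (exact permutation test over 43758 splits, p = 0.00338). Permuting only within label numbers gave an exact p = 0.00521.

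*Cdh1* also gained on each of the catenins, by 0.69 log2 units on *Ctnnb1* (permutation p = 0.00246), 0.69 on *Jup* (p = 0.00288), 0.60 on *Ctnna1* (p = 0.00625) and 0.81 on *Ctnnd1* (p = 0.00169). The Benjamini-Hochberg values of these 4 were 0.00480 to 0.00625. In each case all 10 tg arrays exceeded the wt median. The 5 differences share the *Cdh1* values and are not independent of each other or of the rise of *Cdh1*. That rise was known from these same arrays before the differences were tested, so they are no separate evidence of it. Their p values are adjusted over 5 differences and not over the whole array, and cannot be set beside the limma adjusted p.

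The size of these gains depended on which livers were included. The exact p values in this paragraph were not adjusted over the 5 differences. Without the 4 arrays named tg_1423_2-8 and wt_1423_2-8 the gain of *Cdh1* was 0.41 on *Cdh2* (exact permutation p = 0.0566) and 0.36 on *Ctnna1* (exact p = 0.0502). The gains on *Ctnnb1* (0.41, exact permutation p = 0.0370), *Jup* (0.46, p = 0.0222) and *Ctnnd1* (0.49, p = 0.0247) were under 0.05 only before such adjustment, which was not made. Without tg_1420_4, tg_1423_2-8_1 and tg_1423_2-8_4 the 5 gains were 0.45 to 0.67, with exact permutation p of 0.0194 to 0.0455. Without tg_1386_9 and wt_1386_4 all 5 gains were larger, at 0.67 to 0.89 (exact permutation p of 0.00197 to 0.00629). The difference of *Cdh1* and *Jup* stayed close together among tg arrays, with an SD of 0.191, against 0.693 in wt (n = 8).

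**Figure D3:**
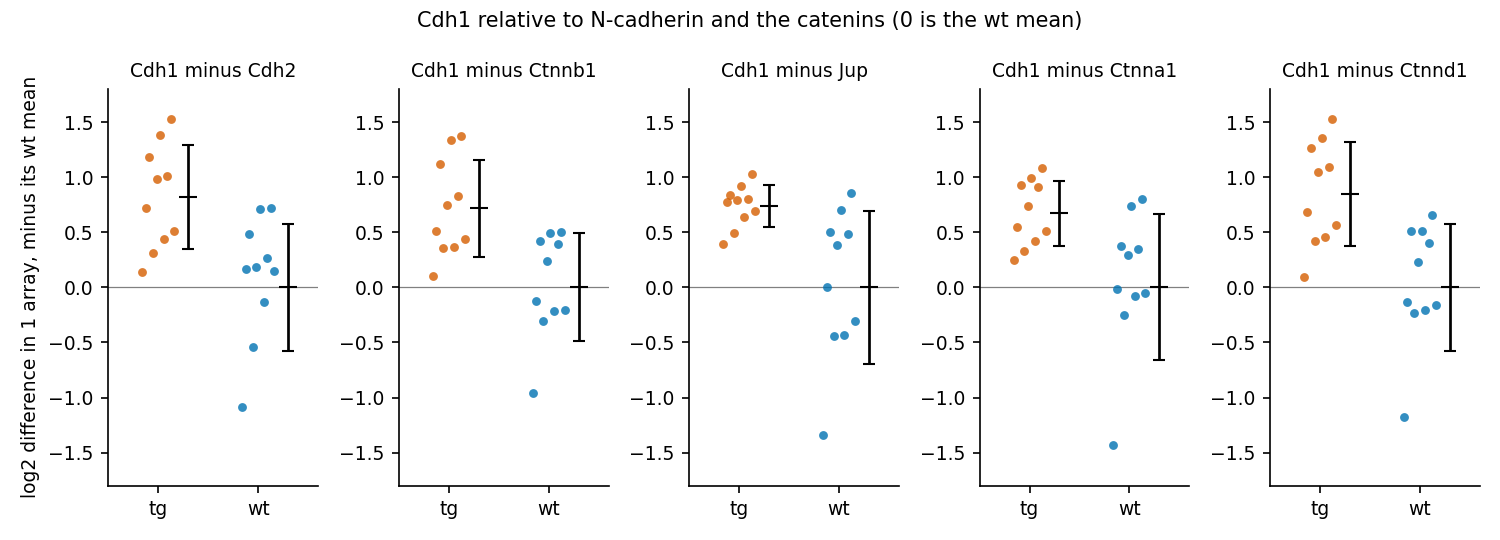
Log2 signal of *Cdh1* minus that of N-cadherin or a catenin within each array, with the wt mean of each difference set to 0 (grey line), for *IMP2-2* tg (n = 10) and wt arrays (n = 10). Bars are mean ± SD, where each near-identical pair of wt arrays counts as 1 (n = 8), and all 5 tg means lie above the wt mean, by 0.67 to 0.85.

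β-catenin, the partner of the cadherin tail and the effector of Wnt signals, has 3 probe sets, of which limma called 0, with 1 at an unadjusted p under 0.05. *Ctnnb1* probe set 1420811_a_at had signals of 11.50, 11.54 and 11.63 (lowest, median and highest) in tg livers, against 11.18, 11.45 and 11.52 in wt livers. Although 7 of 10 tg arrays lay above every wt array, the genotypes differed by only 0.13 log2 units (95% interval 0.04 to 0.22, limma adjusted p = 0.0993). The means were 11.56 ± 0.051 in tg and 11.42 ± 0.11 in wt livers (SD, n = 10 and 8). Its probe sets 1450008_a_at (0.11, limma adjusted p = 0.514) and 1430533_a_at (0.08, adjusted p = 0.824) had log2 fold changes of like size and wider spread. Within the 6 shared numbers *Ctnnb1* was higher in tg in 5 of 6 by probe set 1420811_a_at (-0.022 to 0.28), in 6 of 6 by 1450008_a_at (0.018 to 0.29) and in 4 of 6 by 1430533_a_at (-0.17 to 0.29).

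Plakoglobin can take the place of β-catenin at the cadherin and is also a desmosome protein. Its probe set 1426873_s_at had signals of 6.43, 6.63 and 7.31 in tg livers, against 6.35, 6.61 and 6.89 in wt livers. *Jup* did not pass the test (log2 fold change 0.13, 95% interval -0.11 to 0.36, limma adjusted p = 0.550). The tg livers split, however. Only tg_1420_4, tg_1423_2-8_1 and tg_1423_2-8_4 were above every wt array (7.16 to 7.31), while the other 7 tg arrays lay between 6.43 and 6.80. Without these 3 arrays the *Jup* log2 fold change was -0.07.

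α-catenin carries the link to actin, and its 2 strong probe sets leaned the same way without passing. *Ctnna1* probe set 1448149_at had signals of 9.93, 10.12 and 10.53 in tg livers, against 9.73, 9.94 and 10.10 in wt livers, with 6 of 10 tg arrays above every wt array. Its log2 fold change was 0.22 (95% interval 0.07 to 0.36, limma adjusted p = 0.0978, or 0.0505 once the label number was a term). Probe set 1437807_x_at ranged between 9.94 and 10.73 in tg livers, against 9.84 and 10.27 in wt livers (0.22, limma adjusted p = 0.182). The suffix x marks probes that may also bind other transcripts. By this probe set the 3 tg arrays named above were the highest of all, at 10.37 to 10.73, and the other 7 tg arrays stayed at 9.94 to 10.16. By 1448149_at tg_1423_2-8_1 and tg_1423_2-8_4 were the highest of all (10.47 and 10.53), whereas tg_1420_4 lay at 10.11, among the other tg arrays. Without the 3 arrays the log2 fold change of *Ctnna1* was 0.12 by 1448149_at and 0.07 by 1437807_x_at. The probe sets 1436631_at (0.10, limma adjusted p = 0.710) and 1437275_at (-0.02, adjusted p = 0.933) lie below the median signal of the array, where a stable level cannot be read.

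p120-catenin binds the part of the cadherin tail next to the membrane, and its strongest probe set was the steadiest among those of the 6 genes. *Ctnnd1* probe set 1437448_s_at had signals of 7.25, 7.34 and 7.48 in tg livers, against 7.30, 7.33 and 7.46 in wt livers, nearly the same range. Its log2 fold change was 0.01 (95% interval -0.07 to 0.09, limma adjusted p = 0.896) and turned to -0.06 after a renewed quantile normalization. By this probe set the interval leaves room for a rise of at most 1.06-fold and a fall to 0.954-fold. The weaker probe sets 1422450_at (0.08, limma adjusted p = 0.570) and 1445830_at (-0.09, adjusted p = 0.419) did not pass either, and 1445830_at lies below the median signal. The SD within genotype of 1422450_at was 0.166, and its interval reaches up to a 1.17-fold rise.

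The same 3 tg livers thus had the highest *Cdh1* and *Jup* signals, and the highest *Ctnna1* signals by probe set 1437807_x_at only. They did not have the highest *Ctnnb1* or *Ctnnd1* signals. By the strongest probe set of each gene, *Ctnnb1* in these 3 livers was 11.50 to 11.54, within the 11.50 to 11.63 of the other tg livers. *Ctnnd1* was 7.32 to 7.42, within 7.25 to 7.48. By *Ctnnb1* probe set 1450008_a_at, however, these 3 were the lowest of all tg livers, at 8.83 to 8.91, against 8.94 to 9.36. By 1430533_a_at, where the other tg livers spanned 5.88 to 6.67, these 3 lay at 5.64 to 6.14. Because these livers form a cluster of their own, a correlation with *Cdh1* was computed only over the other 7 tg arrays and over the 8 wt profiles, for 5 genes each. After Benjamini-Hochberg adjustment over these 10 relations 0 passed in exact permutation tests, and 2 had an unadjusted p under 0.05 for Pearson's r and 2 for Spearman's rho. In tg *Jup* gave r = 0.72 (n = 7, exact permutation p = 0.0657, adjusted 0.131) and rho = 0.64 (exact p = 0.139, adjusted 0.231). In wt it gave r = -0.76 (n = 8, exact permutation p = 0.0251, adjusted 0.125) and rho = -0.71 (exact p = 0.0576, adjusted 0.166). Without the 2 arrays farthest from the median of *Cdh1* these were 0.70 (exact permutation p = 0.200) and -0.73 (exact p = 0.126). Whether the genotypes differ in this relation was not tested. The other of the 2 for Pearson's r was *Ctnnb1* in wt, with r = 0.88 (n = 8, exact permutation p = 0.0116, adjusted 0.116) and rho = 0.62 (exact p = 0.115, adjusted 0.230). It rests on wt_1423_2-8_9 and 1 other profile, since r was 0.51 without these 2 (exact permutation p = 0.372). In tg *Ctnnb1* also ran in the same direction as *Cdh1*, with rho = 0.86 (n = 7, exact permutation p = 0.0238, adjusted 0.166) and r = 0.75 (exact p = 0.0565, adjusted 0.131), and r was 0.53 without the 2 farthest arrays (exact permutation p = 0.383). The other of the 2 for Spearman's rho was *Ctnnd1* in tg, with rho = -0.79 (n = 7, exact permutation p = 0.0480, adjusted 0.166) and r = -0.73 (exact p = 0.0657, adjusted 0.131), or r = -0.67 without these 2 arrays (exact permutation p = 0.183).

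**Figure D4:**
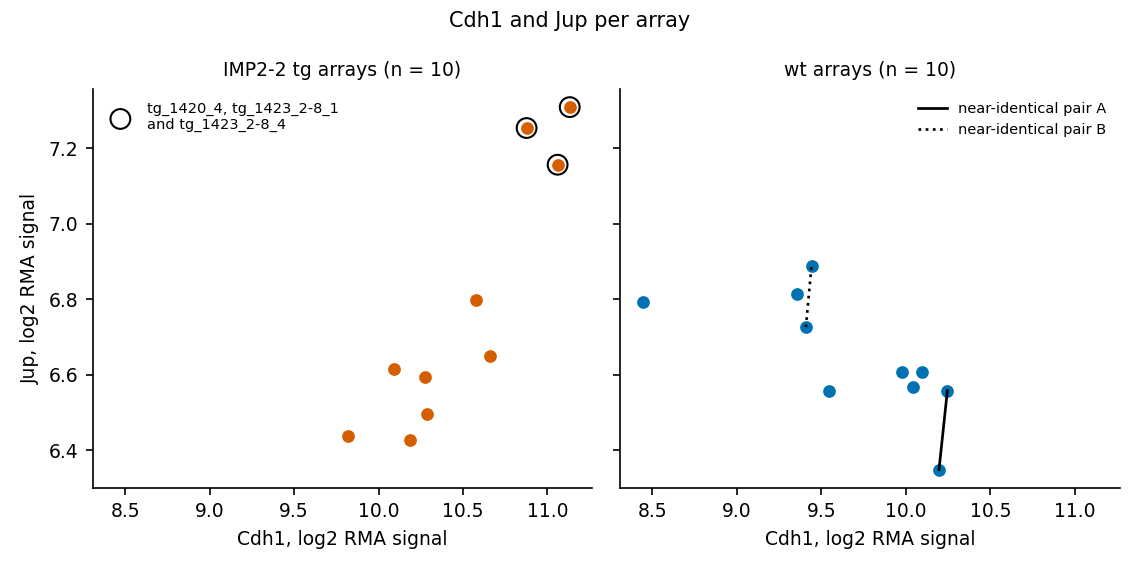
Log2 RMA signals of *Cdh1* (horizontal axis) and *Jup* (vertical axis) on the 10 *IMP2-2* tg and 10 wt arrays, 1 point per array. Circles mark the 3 tg arrays that lie apart, with *Jup* at 7.16 to 7.31, and lines join the 2 near-identical pairs of wt arrays, which count once each in the correlation.

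To see which transcripts went up and down with the cadherins and β-catenin from liver to liver, genotype means were removed and Pearson's r was taken over all 20 arrays, as a description, among 11774 genes with signals at or above the median. The genes most like *Cdh1* were *Tmem184c* (r = 0.89), *Tsc22d1*, a leucine zipper regulator of transcription (0.89), the prostaglandin transporter gene *Slco2a1* (0.88), *Slc18b1*, a vesicular polyamine transporter (0.86), and the tetraspanin gene *Tspan33* (0.85), where 99% of genes were under 0.70. Of these limma called *Slc18b1* higher in tg livers over all 20 arrays (log2 fold change 0.76, adjusted p = 0.0370). Whether this call holds with the wt pairs averaged or with arrays left out was not examined. For *Tmem184c* the value was 0.45 (adjusted p = 0.0541).

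Most like *Cdh2* was *Dsg2* (r = 0.85), which encodes the desmosomal cadherin desmoglein of simple epithelia, followed by *Foxa3*, a hepatocyte transcription factor (0.82), *Agbl3* (0.82), the RNA helicase gene *Ddx46* (0.81) and the transfer RNA synthetase gene *Eprs* (0.81). Most like *Ctnnb1* were *Spryd7* (0.89), the proteasome subunit gene *Psma4* (0.89), *Gmcl1* (0.88), *Prkra*, an activator of the kinase PKR (0.87), and the disulfide isomerase gene *Pdia3* (0.86). These values include the cluster of 3 tg arrays and the near-identical wt pairs described above, and no p was computed for them.

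Other genes of cell contacts were taken from lists. Of 9 genes of the desmosome and its keratins, the contact that anchors keratin filaments, limma called 2 higher and 0 lower, where 2.55% of all probe sets were called in either direction. *Krt8* and *Krt18* encode the keratin pair of hepatocytes. *Krt8* was 10.96 ± 0.42 over the 10 tg livers and 10.28 ± 0.15 over the 8 wt profiles, with a log2 fold change of 0.67 (limma adjusted p = 0.0125). *Krt18* was 11.14 ± 0.58 in tg and 10.40 ± 0.13 in wt livers, with 0.72 (adjusted p = 0.0339). Of the 9 genes, 7 were higher and 0 lower at an unadjusted p under 0.05, where 9.61% of all probe sets were higher and 10.8% lower, and the list median was 0.38, where the median of all probe sets was -0.03. *Dsg2* had a log2 fold change of 0.41 (limma adjusted p = 0.0990). Without the 4 arrays named tg_1423_2-8 and wt_1423_2-8 limma called 0 of the 9, with log2 fold changes of 0.58 for *Krt8* (adjusted p = 0.134) and 0.53 for *Krt18* (adjusted p = 0.231). Without the 3 tg arrays that lie apart *Krt8* passed (0.48, limma adjusted p = 0.0181) and *Krt18* did not (0.40, adjusted p = 0.0608). With wt pairs averaged *Krt8* passed (adjusted p = 0.0433) and *Krt18* did not (adjusted p = 0.0788). The call for *Krt18* was lost in 7 of 20 fits that left out 1 array and that for *Krt8* in 0.

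Of 15 measured genes of tight and gap junctions limma called 0, with 6 up and 1 down at an unadjusted p under 0.05 and a median of 0.27. Of all probe sets 9.61% were up and 10.8% down at this level. Once the label number was a term, 1 was higher, the tricellular junction gene *Marveld2* (0.74, limma adjusted p = 0.0452, against 0.0543 without the number). The connexin genes *Gjb1* and *Gjb2* of gap junctions had log2 fold changes of -0.11 (limma adjusted p = 0.283) and -0.12 (adjusted p = 0.271), and the claudin gene *Cldn12* had -0.17 (adjusted p = 0.125). Of 18 partners of the adherens junction limma called 0, with 1 up and 1 down at an unadjusted p under 0.05 and a median of 0.02. The receptor phosphatase gene *Ptprf* gave 0.09 (limma adjusted p = 0.312), the actin crosslinker gene *Actn4* -0.01 (adjusted p = 0.934) and the p120-catenin relative *Pkp4* 0.15 (adjusted p = 0.413).

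Of 19 other measured cadherins, 7 reach the median signal. Limma called 0, with 0 up and 1 down at an unadjusted p under 0.05, where 9.61% of all probe sets were up and 10.8% down. The list median was -0.05. The 3 with the highest signal were *Cdh15*, a muscle cadherin (-0.07, limma adjusted p = 0.531), *Cdh5*, the endothelial cadherin (0.06, adjusted p = 0.718), and *Cdh3*, or P-cadherin (0.07, adjusted p = 0.426). Once the label number was a term, *Cdh22* was lower (-0.24, limma adjusted p = 0.0436, against 0.0580 without the number). *Marveld2* and *Cdh22* were picked out after their values were seen.

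**Figure D5:**
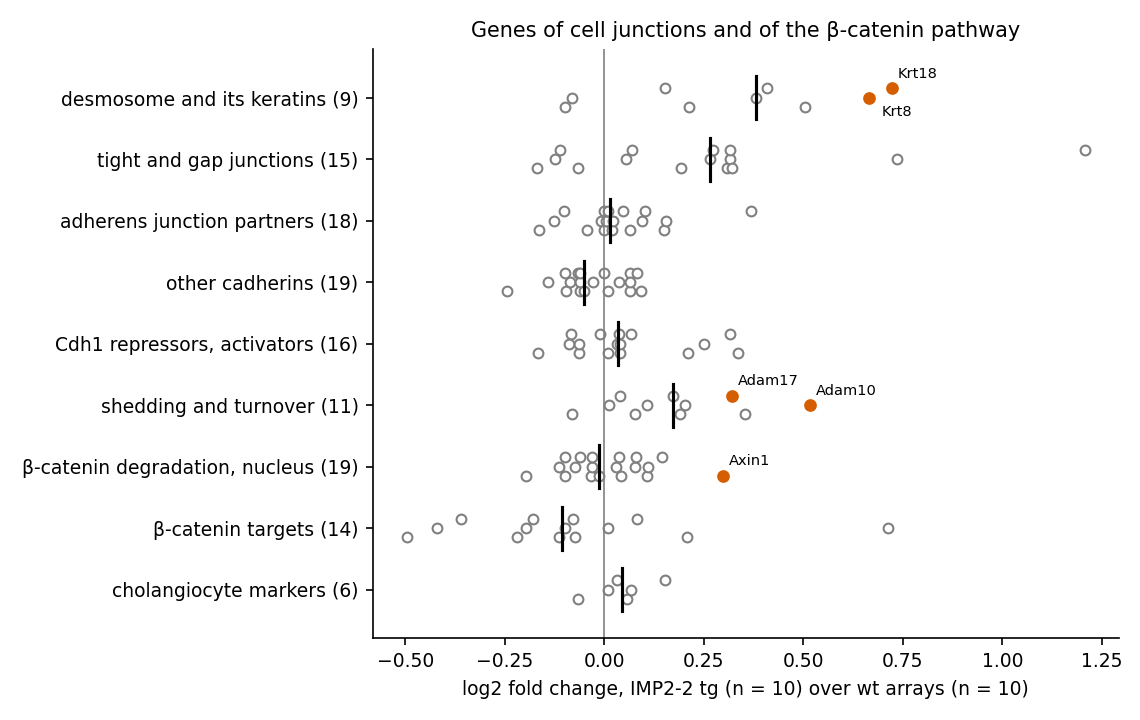
Genes of 9 lists by their log2 fold change between *IMP2-2* tg (n = 10) and wt arrays (n = 10, wt as the base), with the number of genes in brackets. Filled points passed limma adjusted p under 0.05 and are named, and black lines mark list medians, such as 0.38 for the desmosome and -0.11 for β-catenin targets.

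Among 16 repressors and activators of *Cdh1* limma called 0, with 2 up and 1 down at an unadjusted p under 0.05 and a median of 0.03. Values were 0.07 for *Hnf4a*, the hepatocyte factor that sustains epithelial genes (limma adjusted p = 0.701), 0.04 for the epithelial splicing factor gene *Esrp2* (adjusted p = 0.907) and -0.06 for *Foxa2* (adjusted p = 0.871). The transcripts of proteins that cut or recycle cadherins were measured for 11 genes. Limma called 2 higher and 0 lower, where 1.88% of all probe sets were called higher and 0.663% lower. At an unadjusted p under 0.05, 5 were up and 0 down, where 9.61% of all probe sets were up and 10.8% down. The list median was 0.17. *Adam10* and *Adam17* encode the membrane proteases that shed cell surface proteins, E-cadherin among those cut by ADAM10. *Adam10* was 9.16 ± 0.35 over the 10 tg livers and 8.65 ± 0.086 over the 8 wt profiles, with a log2 fold change of 0.52 (limma adjusted p = 0.0178). *Adam17* was 7.45 ± 0.22 in tg and 7.10 ± 0.13 in wt livers, with 0.32 (adjusted p = 0.0372). With wt pairs averaged *Adam10* (limma adjusted p = 0.0568) and *Adam17* (adjusted p = 0.0658) no longer passed. Without the 4 arrays named tg_1423_2-8 and wt_1423_2-8 both were also lost, and without the 3 tg arrays that lie apart *Adam10* passed (0.32, adjusted p = 0.0469) and *Adam17* did not. The call for *Adam17* was lost in 12 of 20 fits that left out 1 array and that for *Adam10* in 0.

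Of 19 genes that degrade β-catenin or act with it in the nucleus, limma called 1 higher and 0 lower. At an unadjusted p under 0.05, 2 were up and 1 down, and the list median was -0.01. Of all probe sets 1.88% were called higher and 0.663% lower, and 9.61% were up and 10.8% down at an unadjusted p under 0.05. *Axin1*, the scaffold of the destruction complex, was 6.82 ± 0.21 over the 10 tg livers and 6.52 ± 0.12 over the 8 wt profiles, with a log2 fold change of 0.30 (limma adjusted p = 0.0379). The call for *Axin1* was lost with wt pairs averaged (adjusted p = 0.0891), without those named tg_1423_2-8 and wt_1423_2-8 (0.22, adjusted p = 0.211), without the 3 tg arrays that lie apart (0.18, adjusted p = 0.216) and in 12 of 20 fits that left out 1 array. Of 14 genes that β-catenin turns on in hepatocytes around the central vein limma called 0, with 1 up and 5 down at an unadjusted p under 0.05 and a median of -0.11. *Cyp2e1*, a cytochrome of drug and alcohol oxidation, gave -0.10 (limma adjusted p = 0.215), *Rgn*, a calcium binding enzyme of vitamin C synthesis, -0.20 (adjusted p = 0.142) and *Cyp1a2* -0.22 (adjusted p = 0.511).

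Bile duct cells also carry E-cadherin, and their markers were therefore set beside it. Of 9 listed markers 6 were analysed here (*Krt7*, *Krt19*, *Epcam*, *Sox9*, *Cldn4* and *Cftr*) and limma called 0, with 0 at unadjusted p under 0.05. Only *Sox9* reached the median of all probe sets. Their mean was 3.90 to 4.32 on tg arrays and 3.88 to 4.23 on wt arrays, with a median log2 fold change of 0.05. The part of bile duct cells in the *Cdh1* values was not tested.

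Of 6 endothelial markers, *Lyve1*, a hyaluronan receptor of sinusoids, was called higher (log2 fold change 1.0, limma adjusted p = 0.0214), while their mean was 6.04 to 6.58 on tg arrays and 5.59 to 6.31 on wt arrays. Limma called 0 of 6 stellate and mesenchymal markers (1 higher at unadjusted p under 0.05), 0 of 4 pancreas markers (1 lower) and 0 of 4 gut markers (1 lower). Of all probe sets 1.88% were called higher, and 9.61% were higher and 10.8% lower at an unadjusted p under 0.05. Stellate markers averaged 5.99 to 6.71 on tg and 6.06 to 6.35 on wt arrays. Pancreas markers averaged 4.30 to 4.70 on tg and 4.40 to 4.69 on wt arrays, and gut markers 4.94 to 5.36 on tg and 5.22 to 5.41 on wt arrays. Their part in the values above was not tested.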

How the data were processed

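RNA from livers of 10 *IMP2-2* tg mice and 10 wt mice was labelled with biotin and hybridized, 1 array per sample. The deposited table holds log2 values of 45101 probe sets that the authors had obtained by RMA. They were used as they are, and no version of the program was found. A scan was not read again. Gene names come from the array annotation, in which 34958 probe sets have 1 symbol, 932 several and 9211 none, and a gene was read only from probe sets with its symbol alone. The probe set with the highest mean stands for a gene with several.

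R 4.3.3 with limma 3.58.1 fitted all 20 arrays with no term but genotype, as the methods of the study name limma, with the threshold at 0.05. Python 3.11.15 with numpy 2.4.6, scipy 1.17.1, pandas 2.3.3 and matplotlib 3.10.9 ran the permutation tests (two-sided, 100000 draws, exact where a group has under 10 arrays) and the figures. On simulated data with 45101 probe sets limma found 84 of 100 changes at 0.5 log2 units and 98 of 100 at 1 log2 unit, with 5 false calls among 187. The simulated arrays were independent, without near-identical pairs, shared numbers or a cluster. These rates are for probe sets drawn at random and do not hold for *Cdh1*, whose SD within genotype of 0.499 was above most.

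Groups follow the genotype in the labels. Sample names also carry 6 numbers that occur in both genotypes, whose meaning was not found in the labels or methods. After genotype means were removed, arrays with the same number correlated across genotypes at 0.184 to 0.404, most for the own number in 5 of 6. The numbers were therefore treated as pairing in alternative fits and in the permutation within label numbers. Both near-identical wt pairs cross numbers 1407 and 1420, and these fits and this permutation count their arrays as separate mice. The main limma fit and the main permutation tests ignore them, so their p values are not paired. P values treat arrays as separate mice.

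The 6 genes and the gene lists were chosen with earlier results of these data known. From each list the called genes are named (at most 6), otherwise the 3 with the highest mean, and the 5 genes most like *Cdh1*, *Cdh2* and *Ctnnb1*. Alternatives were the number as a term or random block, other scalings, only probe sets at or above the median mean, trend and robust settings, array weights, and arrays averaged or left out.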

Additional observations from a re-analysis of the deposited data

Results flagged for a closer look

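*Cdh2* probe set 1449244_at had 1 tg array far above the others. Array tg_1423_2-8_4 was at 8.92 and the next tg array at 8.65, a gap that is 0.628 of the range of the 10 tg arrays. Of 30 groups of arrays examined in this way 1 stood out, where chance gives about 1 in 20.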

How the results depend on the processing

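In limma *Cdh1* lost its call in 5 of 11 alternatives: with near-identical wt pairs averaged (0.86, adjusted p = 0.0734), without the 4 arrays named tg_1423_2-8 and wt_1423_2-8 (0.50, adjusted p = 0.211), without tg_1420_4, tg_1423_2-8_1 and tg_1423_2-8_4 (0.60, adjusted p = 0.270), with trend and robust settings (0.82, adjusted p = 0.0503) and with array weights (0.63, adjusted p = 0.0787). In each of these 0 of the 14 probe sets were called higher, and of all 45101 probe sets 245, 69, 158, 735 and 599 were, in the same order, against 850 over all arrays with the settings of the report. In the 20 fits without 1 array the log2 fold change of *Cdh1* was 0.68 to 0.90, with adjusted p of 0.0177 to 0.0777, and 0 to 1 probe sets were called. The call was lost in 9 of them, those without tg_1407_3, tg_1407_9, tg_1420_4, tg_1423_2-8_1, tg_1423_2-8_4, wt_1407_5, wt_1420_1, wt_1420_7 or wt_1423_2-8_3. No other probe set of the 6 genes was called under any of these settings. The gain of *Cdh1* on *Cdh2* was 0.60 to 0.80 without 1 array. Its p, here not adjusted over the 5 differences, missed 0.05 only without those 4 arrays (0.41, exact permutation p = 0.0566). The cause of these losses was not tested. With the replicate block, the label number as a term, *Cdh1* kept its call (0.82, limma adjusted p = 0.0453), as it did with the number as a random block (adjusted p = 0.0289), and the block changed no call among the 6 genes. Beyond the calls of *Cdh22* and *Marveld2* given above, it added *Arf6* (0.17, adjusted p = 0.0487) to the genes of cadherin turnover. The gene lists were run under these settings after the data were seen. Precision is limited by the number of mice, and 3 of the 14 probe sets lie under the median signal, where a change may go unseen.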
